A study of Mus musculus with 20 samples.

Results

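The 10 genes Vegfa, Kdr, Flt1, Tek, Tie1, Angpt1, Angpt2, Pecam1, Cdh5 and Emcn were taken by name from a table of 18722 genes; they comprise the vascular growth factor VEGF-A and its receptors, the angiopoietins and their TIE receptors, and surface and junction proteins of endothelium, the cells that line blood vessels. The table came from RNA sequencing of 20 tumour libraries in 4 groups of 5, the tumours being grown from U14, a line of mouse cervical cancer. The Plerixafor group received plerixafor, which blocks the chemokine receptor CXCR4; the Combination group received plerixafor with anti-PD-1; the anti-PD-1 group received an antibody to the checkpoint receptor PD-1; and the Solution group served as the control. The labels give no dose, schedule, mouse strain, age or site of the tumours, and do not tie libraries to animals, so p-values measure the spread between libraries, which may in part be technical. Levels are FPKM (fragments scaled to gene length and to library size), and 16565807 to 19833872 reads per library stood behind them.

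Anti-PD-1 library 1 stood apart from its group. A chi-square comparison of reads had a median over genes of 30.4 to 71.5 in its 4 pairs with the other anti-PD-1 libraries and of 3.997 to 15.7 in the 6 pairs among those. Its summed macrophage markers were 1540 FPKM, against 7088 to 12280 in the other 4, and its summed fibroblast markers 1864 FPKM, against 7087 to 9006.

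VEGF-A is secreted by tumour and stromal cells, is induced by low oxygen, and acts on endothelium through KDR (VEGFR2), the main signalling receptor; FLT1 (VEGFR1) binds VEGF-A tightly, signals weakly and can act as a decoy. Angiopoietin-1, made mainly by mural and other mesenchymal cells, activates TEK (TIE2) and stabilises vessels, while angiopoietin-2, released by endothelium, can oppose it depending on context; TIE1 is an orphan co-receptor of TEK. CDH5 (VE-cadherin) holds endothelial cells together, PECAM1 is a junction protein that platelets and leukocytes carry as well, and EMCN is a sialomucin of capillary and venous endothelium.

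Of the 10 genes, 6 had a promoter window in the RefSeq table used (assembly GRCm38.p6, while the build named for the expression table is GRCm39, so the coordinates are those of the older assembly). The 250 bases before the start site are shown for the growth factor and its receptors, and for both TIE receptors, since these are the ligand and receptor pairs whose levels are compared. Capitals mark matches on either strand. The GC box was searched as GGGCGG. A longer form of the ETS motif was searched as AGGAAG, and the GATA motif as AGATAA. The core of the hypoxia response element was searched as ACGTG. The windows lie at chr17:46032378-46032627 (minus strand, the first of 2 Vegfa starts), chr5:75978456-75978705 (minus), chr5:147726012-147726261 (minus), chr4:94739039-94739288 (plus) and chr4:118489850-118490099 (minus).
Vegfa: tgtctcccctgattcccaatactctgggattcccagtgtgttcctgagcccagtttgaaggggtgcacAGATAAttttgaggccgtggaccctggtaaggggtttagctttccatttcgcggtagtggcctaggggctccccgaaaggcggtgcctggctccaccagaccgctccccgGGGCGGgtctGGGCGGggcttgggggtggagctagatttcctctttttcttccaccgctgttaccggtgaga
Kdr: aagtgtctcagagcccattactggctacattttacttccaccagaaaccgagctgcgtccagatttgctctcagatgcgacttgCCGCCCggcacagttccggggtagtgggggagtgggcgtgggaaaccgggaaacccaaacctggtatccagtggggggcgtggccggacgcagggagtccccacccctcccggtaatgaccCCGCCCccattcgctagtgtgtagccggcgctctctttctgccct
Flt1: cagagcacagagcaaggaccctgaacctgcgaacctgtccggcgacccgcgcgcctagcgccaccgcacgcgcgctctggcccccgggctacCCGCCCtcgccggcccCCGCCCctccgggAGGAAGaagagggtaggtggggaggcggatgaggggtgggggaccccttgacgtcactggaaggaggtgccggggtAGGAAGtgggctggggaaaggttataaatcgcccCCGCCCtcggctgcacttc
Tek: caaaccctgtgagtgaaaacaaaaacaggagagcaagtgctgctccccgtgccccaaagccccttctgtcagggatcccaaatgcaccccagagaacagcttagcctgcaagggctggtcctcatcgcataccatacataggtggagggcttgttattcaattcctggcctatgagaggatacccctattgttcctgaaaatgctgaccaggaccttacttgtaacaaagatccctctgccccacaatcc
Tie1: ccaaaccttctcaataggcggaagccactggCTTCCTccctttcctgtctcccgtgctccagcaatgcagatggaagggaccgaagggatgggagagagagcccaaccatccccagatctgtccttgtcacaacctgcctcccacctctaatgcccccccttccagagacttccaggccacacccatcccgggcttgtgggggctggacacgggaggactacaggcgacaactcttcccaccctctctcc
The 3 genes of the VEGF-A axis held GC boxes, with 2 in Vegfa, 2 in Kdr and 3 in Flt1, and neither TIE receptor held one; 32.7% of all 32851 windows of this length did. AGGAAG stood 129 and 53 bases before the Flt1 start and 219 bases before the Tie1 start, against 29.5% of all windows with at least 1 match. The GATA letters occurred 182 bases before the first Vegfa start (9.99% of all windows), and ACGTG in none of these 5 windows (16.6% of all windows); the second Vegfa start, not printed, had 1. GC content was 70.4% for Flt1, 61.6% for Kdr, 60.4% for Tie1, 59.2% for the first Vegfa start and 51.2% for Tek, against a median of 52.4% over all windows. A match of letters in a window is a description and shows no binding.

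The ligand and the endothelial genes moved in opposite directions in both groups that received plerixafor. Vegfa was higher than in Solution tumours, Flt1 did not pass the test, and Kdr, Tek, Tie1, Angpt1, Angpt2, Pecam1 and Cdh5 were lower. By limma on log2(FPKM + 1), with adjustment over all 12687 tested genes, 8 of these 10 passed in the Plerixafor tumours at an adjusted p under 0.05, 1 higher and 7 lower; 75.5% of all tested genes passed, 42.3% higher and 33.2% lower, so that the share of 8 in 10 is close to the background. The same counts held for Combination against Solution, where 76.1% of all tested genes passed, 42.0% higher and 34.1% lower. The median log2 fold change of the 10 genes was -0.78 for Plerixafor and -0.79 for Combination, beside 0.13 and 0.10 for all tested genes. In the Plerixafor tumours 1 gene had all libraries above the Solution libraries and 6 had all below, which held for 41.5% and 29.1% of all tested genes. The Combination tumours had 1 and 6 such genes, beside 42.1% and 33.0%. Both comparisons share the Solution libraries and are not independent. In bulk RNA scaled to library size, fewer endothelial cells, less RNA per endothelial cell and a larger share of RNA from other cells cannot be told apart.

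**Figure D1:**
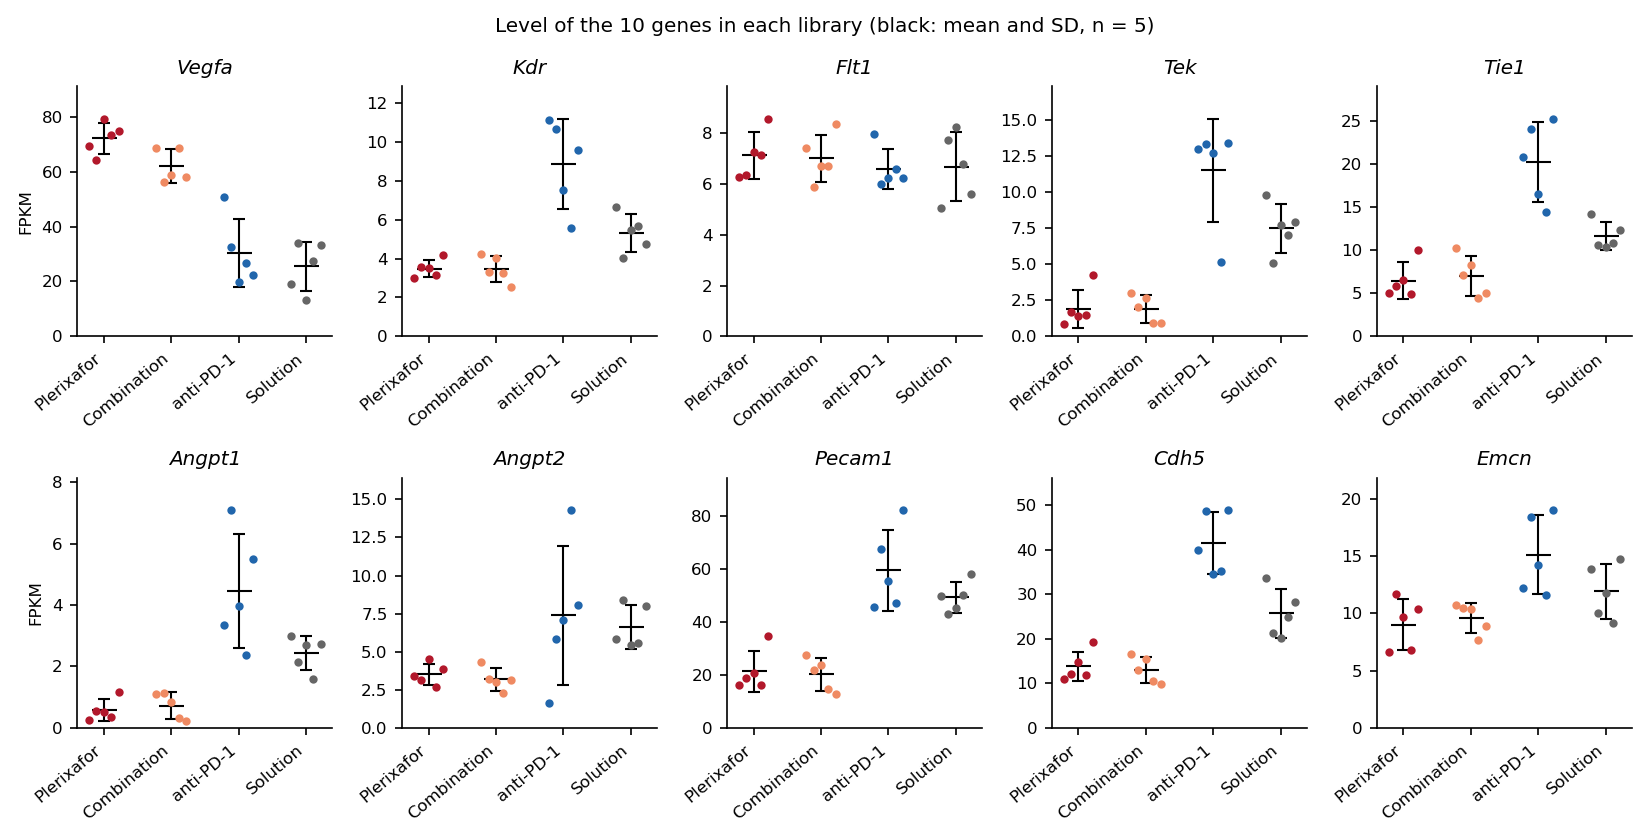
FPKM of the 10 genes (y axes, each from 0) in single libraries (points) of the Plerixafor, Combination, anti-PD-1 and Solution groups (x axes), with the mean and SD of 5 libraries in black. Vegfa is at least 56.2 FPKM in every Plerixafor and Combination library and at most 50.9 in every anti-PD-1 and Solution library, Flt1 covers 5.04 to 8.57 FPKM over all groups, and Tek, Angpt1, Pecam1 and Cdh5 are lower in both plerixafor-treated groups.

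Vegfa had 69.4, 64.4, 79.3, 73.3 and 74.8 FPKM in the Plerixafor libraries and 68.6, 56.2, 58.8, 68.6 and 58.0 FPKM in the Combination libraries. In the anti-PD-1 libraries it had 50.9, 32.4, 19.8, 26.6 and 22.4 FPKM, and in the Solution libraries 19.2, 34.1, 13.2, 27.5 and 33.3 FPKM. Every library that received plerixafor lay above every library that did not, and the spread was wider without plerixafor, with a coefficient of variation of 7.81% in Plerixafor, 9.72% in Combination, 40.8% in anti-PD-1 and 35.7% in Solution. The limma log2 fold change was 1.55 (SE 0.24, adjusted p = 1.08e-05) for Plerixafor and 1.33 (SE 0.24, adjusted p = 5.67e-05) for Combination against Solution, and 1.08 (SE 0.24, adjusted p = 0.000464) for Combination against anti-PD-1. The Plerixafor value exceeded those of 90.8% of all tested genes, and those of all other genes of the set. With anti-PD-1 alone Vegfa lay within the Solution range apart from its first library, at 50.9 FPKM, and its limma log2 fold change was 0.25 (SE 0.24, adjusted p = 0.44).

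Kdr, the main receptor for VEGF-A, had 3.01, 3.54, 3.53, 3.14 and 4.16 FPKM in the Plerixafor libraries and 4.22, 3.31, 4.03, 3.26 and 2.53 FPKM in the Combination libraries. It had 11.1, 10.6, 7.50, 5.57 and 9.57 FPKM in the anti-PD-1 libraries, against 6.63, 4.02, 5.48, 5.66 and 4.74 FPKM in the Solution libraries. The falls with plerixafor were small and the groups overlapped: the highest Plerixafor library, at 4.16, and the 2 highest Combination libraries exceeded the lowest Solution library, at 4.02 FPKM. The log2 fold change by limma was -0.49 (SE 0.16, adjusted p = 0.00964) for Plerixafor and -0.50 (SE 0.16, adjusted p = 0.00827) for Combination. Against anti-PD-1 the Combination libraries were lower without overlap, at -1.12 (SE 0.16, adjusted p = 3.97e-06) by limma.

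Flt1, the decoy-like receptor, had 6.25, 6.37, 7.26, 7.14 and 8.57 FPKM in the Plerixafor libraries, 7.40, 5.87, 6.71, 6.72 and 8.34 in the Combination libraries, 7.96, 5.996, 6.24, 6.60 and 6.24 in the anti-PD-1 libraries and 5.04, 7.72, 8.25, 6.80 and 5.59 in the Solution libraries. All 4 groups overlapped, and the group means lay between 6.61 and 7.12 FPKM. The limma log2 fold change against Solution was 0.09 (SE 0.12, adjusted p = 0.503) for Plerixafor, 0.07 (SE 0.12, adjusted p = 0.604) for Combination and -0.00 (SE 0.12, adjusted p = 0.995) for anti-PD-1. The signs of these values, and of Combination against anti-PD-1, turn with the scaling, and none passed the threshold under any setting.

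The TIE receptor Tek had the lowest log2(FPKM + 1) fold changes of the 10 genes with plerixafor, although by group means Angpt1 was about as low relative to Solution. It had 0.825, 1.66, 1.38, 1.45 and 4.22 FPKM in the Plerixafor libraries and 2.99, 2.01, 2.63, 0.956 and 0.903 FPKM in the Combination libraries, from 74 to 360 reads a library. It had 13.01, 13.3, 12.7, 5.15 and 13.4 FPKM in the anti-PD-1 libraries, against 9.79, 5.06, 7.71, 6.99 and 7.91 FPKM in the Solution libraries. No library that received plerixafor reached the lowest without it, at 5.06 FPKM, and the Plerixafor library 5 was the highest of its group. The limma log2 fold change was -1.62 (SE 0.29, adjusted p = 6.54e-05) for Plerixafor and -1.59 (SE 0.29, adjusted p = 7.7e-05) for Combination against Solution, and -2.11 (SE 0.29, adjusted p = 3.21e-06) for Combination against anti-PD-1.

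Tie1, the partner of Tek, fell less on the log2 scale. Its level was 5.02, 5.81, 6.60, 4.88 and 10.1 FPKM in the Plerixafor libraries and 10.2, 7.11, 8.30, 4.46 and 5.01 FPKM in the Combination libraries, against 14.2, 10.6, 10.3, 10.9 and 12.4 FPKM in the Solution libraries. Neither treated group overlapped the Solution group, although the highest libraries, at 10.1 FPKM in Plerixafor and 10.2 in Combination, came close to the lowest Solution library, at 10.3 FPKM. The limma log2 fold change was -0.80 (SE 0.21, adjusted p = 0.00197) for Plerixafor and -0.70 (SE 0.21, adjusted p = 0.00487) for Combination.

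The angiopoietins fell as well. Angpt1, the activating ligand, had 0.246, 0.564, 0.530, 0.365 and 1.16 FPKM in the Plerixafor libraries, 1.11, 1.13, 0.835, 0.328 and 0.226 in the Combination libraries, 3.34, 7.09, 3.96, 2.38 and 5.52 in the anti-PD-1 libraries and 2.99, 2.15, 2.69, 1.60 and 2.73 in the Solution libraries. Few reads stood behind it with plerixafor, 16 to 81 in those 10 libraries against 120 to 210 in Solution, and the groups did not overlap. The limma log2 fold change was -1.14 (SE 0.22, adjusted p = 0.000152) for Plerixafor and -1.01 (SE 0.22, adjusted p = 0.00045) for Combination, values that the added 1 FPKM makes smaller for so low a gene. Angpt2, the context-dependent ligand, had 3.38, 3.17, 4.49, 2.65 and 3.88 FPKM in the Plerixafor libraries, 4.31, 3.23, 2.98, 2.26 and 3.15 in the Combination libraries, 1.63, 5.83, 7.08, 14.3 and 8.06 in the anti-PD-1 libraries and 5.85, 8.42, 5.42, 5.54 and 8.01 in the Solution libraries. The plerixafor-treated libraries all lay below the Solution libraries, while the anti-PD-1 libraries held both the lowest and the highest value of all 20. By limma Angpt2 fell by 0.76 on the log2 scale in Plerixafor (SE 0.31, adjusted p = 0.0322) and by 0.87 in Combination (SE 0.31, adjusted p = 0.0154). The Plerixafor call was lost without Plerixafor library 1, 2 or 4 or without Solution library 2 or 5, at adjusted p = 0.0526 to 0.0729 by limma, and the fold change then was -0.75 to -0.68; it was also lost with the muscle level as a covariate (adjusted p = 0.051) and without Solution libraries 3 and 5 together (adjusted p = 0.0808). Angpt2 lies within Mcph1 on the opposite strand in the GRCm38 annotation, and whether reads were counted by strand is not stated.

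The junction genes were lower in every plerixafor-treated library than in any Solution library. Pecam1 had 16.01, 18.7, 20.7, 16.2 and 34.6 FPKM in the Plerixafor libraries and 27.4, 21.9, 23.8, 14.8 and 12.7 FPKM in the Combination libraries, against 49.8, 42.8, 45.2, 50.2 and 58.0 FPKM in the Solution libraries. Cdh5 had 11.04, 12.1, 14.8, 11.95 and 19.2 FPKM in the Plerixafor libraries and 16.5, 12.96, 15.4, 10.5 and 9.76 FPKM in the Combination libraries, against 33.6, 21.2, 20.2, 24.9 and 28.3 FPKM in the Solution libraries. In both genes Plerixafor library 5 was the highest of its group and came nearest to the controls. By limma the log2 fold change of Pecam1 was -1.22 (SE 0.22, adjusted p = 7.36e-05) for Plerixafor and -1.29 (SE 0.22, adjusted p = 4.03e-05) for Combination. That of Cdh5 was -0.85 (SE 0.18, adjusted p = 0.000258) for Plerixafor and -0.93 (SE 0.18, adjusted p = 0.000108) for Combination. Emcn, the capillary sialomucin, averaged 9.03 ± 2.23 FPKM in Plerixafor, 9.63 ± 1.32 in Combination, 15.1 ± 3.45 in anti-PD-1 and 11.9 ± 2.40 in Solution tumours (SD, n = 5 each), with overlapping libraries. Its limma log2 fold changes of -0.38 (SE 0.17, adjusted p = 0.0554) and -0.27 (SE 0.17, adjusted p = 0.16) did not pass; the Plerixafor value passed in 14 of 33 alternative settings, among them limma-voom on reads (adjusted p = 0.0362), median-of-ratios scaling (adjusted p = 0.0153) and the fit without Plerixafor library 5 (adjusted p = 0.0422).

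**Figure D2:**
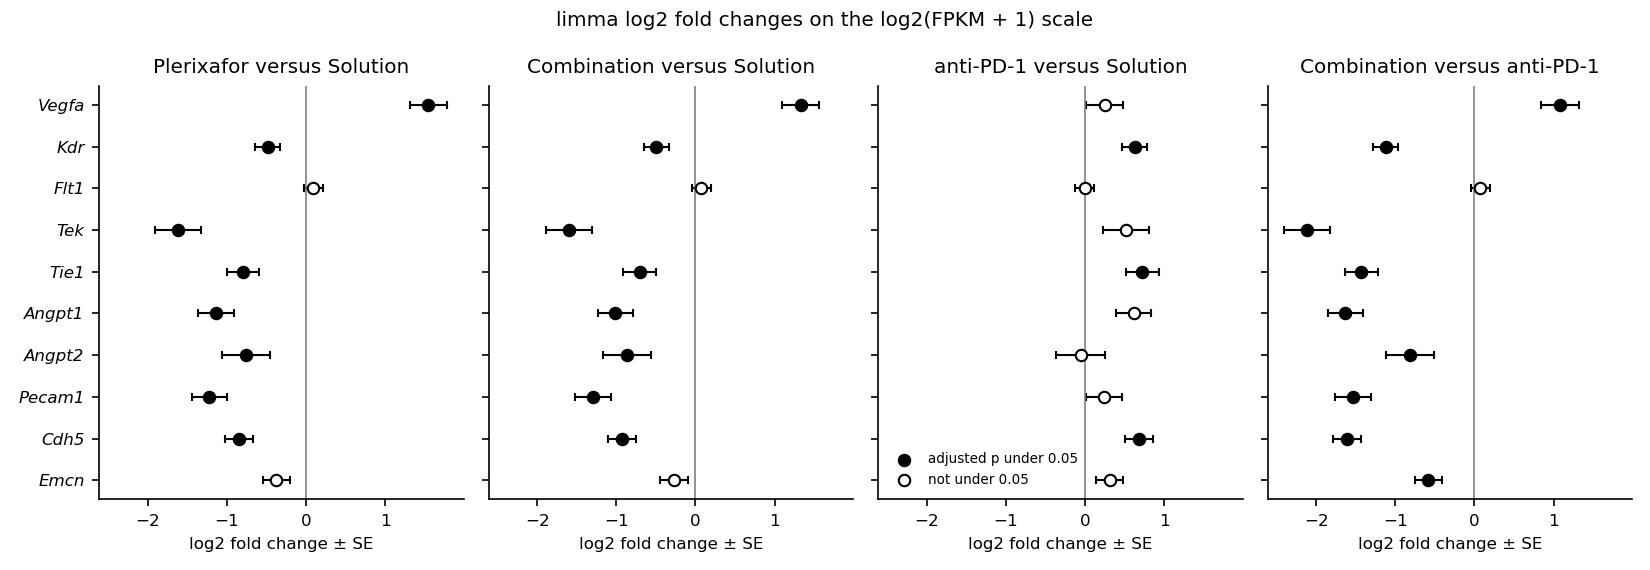
limma log2 fold change (x axes, points) with its SE (bars) for each of the 10 genes (y axis) in 4 comparisons, filled where the adjusted p was under 0.05. For Plerixafor and for Combination against Solution, Vegfa is the filled point right of 0, 7 filled points and the open point of Emcn lie left of it, Flt1 is open and close to 0 in all 4 comparisons, and Kdr, Tie1 and Cdh5 are the filled points for anti-PD-1 against Solution.

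With anti-PD-1 alone, 3 of the 10 genes passed against Solution, all higher, where 11.5% of all tested genes passed, 8.38% higher and 3.08% lower. Of the 10, 2 had every anti-PD-1 library above every Solution library and none had every library below, beside 2.89% and 2.80% of all tested genes. Tie1 had 20.9, 24.1, 16.6, 14.5 and 25.3 FPKM in the anti-PD-1 libraries, all above the Solution libraries, with a limma log2 fold change of 0.73 (SE 0.21, adjusted p = 0.0318). Cdh5 had 39.9, 48.7, 34.6, 35.3 and 48.8 FPKM, likewise all above Solution, with a limma log2 fold change of 0.68 (SE 0.18, adjusted p = 0.0222). Kdr overlapped the Solution libraries in 1 library, and its limma log2 fold change was 0.63 (SE 0.16, adjusted p = 0.0214). Angpt1, Tek and Emcn had positive values that did not pass (log2 fold changes 0.62, 0.52 and 0.31; adjusted p = 0.0739, 0.207 and 0.197 by limma). The Pecam1 libraries, at 45.6, 67.2, 55.4, 47.0 and 82.0 FPKM, overlapped the Solution range, with a limma log2 fold change of 0.24 (SE 0.22, adjusted p = 0.429). The median of the 10 genes was 0.42, beside -0.11 for all tested genes.

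The anti-PD-1 calls rested on single libraries and on the model. None of the 10 genes passed by limma without anti-PD-1 library 2 or 5, without Solution library 2, or with only these 2 groups in the fit. In that order 4.29%, 0.0158%, 6.14% and 0% of all tested genes passed, so that none of 10 is near the background. Without 1 of those 3 libraries the log2 fold changes were 0.55 to 0.59 for Kdr, 0.64 to 0.69 for Tie1 and 0.62 for Cdh5, with adjusted p = 0.0517 to 0.0831. Kdr alone of the 10 passed without Solution library 3, beside 6.22% of all tested genes. Cdh5 alone passed without Solution library 5, beside 4.59%, and by limma-voom, beside 1.09%. Without anti-PD-1 library 4, 5 of the 10 passed, beside 32.4% of all tested genes. Without anti-PD-1 library 1, Kdr and Cdh5 passed, beside 8.14%, the Vegfa value was 0.05 (0.25 with it) and that of Angpt2 0.31 (-0.06 with it). Skeletal muscle markers moved with this comparison: 10 of 10 were higher in anti-PD-1 tumours, their summed level was 88580, 25220, 10730, 163.1 and 32220 FPKM in the anti-PD-1 libraries against 7.96 to 1424 FPKM in Solution, and none was at 0 throughout a group. With the muscle level as a covariate none of the 10 genes passed, beside 0% of all tested genes. The log2 fold changes were then 0.15 for Kdr, 0.23 for Tie1 and 0.29 for Cdh5. Muscle level and group were largely tied in this comparison, so this setting cannot separate them. Without anti-PD-1 libraries 1, 2 and 5 together, an alternative chosen after seeing the data, none of the 10 passed, beside 0.00788% of all tested genes. The values were then 0.26 for Kdr, 0.39 for Tie1 and 0.45 for Cdh5. Of all called genes in this comparison 73.1% were higher, and 48.8% after quantile normalisation; the 3 named genes kept positive values under every scaling tried.

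Combination differed from anti-PD-1 alone in 9 of the 10 genes, where 74.6% of all tested genes passed. Vegfa was higher and 8 genes were lower, beside 43.7% higher and 30.9% lower over all tested genes. The groups did not overlap for Vegfa, all higher, and for 7 genes, all lower, beside 37.9% and 15.8%. The median of the 10 genes was -1.276, beside 0.15 for all genes. On the log2(FPKM + 1) scale, which shrinks the change of Angpt1 more than that of Tek, the largest falls after Tek were those of Angpt1, at -1.63 (SE 0.22, adjusted p = 2.69e-06), Cdh5, at -1.61 (SE 0.18, adjusted p = 1.67e-07), Pecam1, at -1.53 (SE 0.22, adjusted p = 5.84e-06), and Tie1, at -1.43 (SE 0.21, adjusted p = 5.65e-06), all by limma and with no overlap between the groups. Emcn passed here, at -0.58 (SE 0.17, adjusted p = 0.00508) by limma, but not with the muscle level as a covariate (-0.30, adjusted p = 0.207) or without anti-PD-1 libraries 1, 2 and 5 (-0.39, adjusted p = 0.0976). Angpt2 passed with overlapping libraries, at -0.81 (SE 0.31, adjusted p = 0.0229), and not without Combination library 4, anti-PD-1 library 4 or anti-PD-1 library 5, or with only these 2 groups in the fit (adjusted p = 0.0567, 0.0777, 0.0546 and 0.0868 by limma). Without anti-PD-1 library 1 the Angpt2 value was -1.18 (adjusted p = 4.07e-05 by limma).

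Adding anti-PD-1 to plerixafor gave no detectable change in the 10 genes. Their log2 fold changes for Combination against Plerixafor ran from -0.22 for Vegfa to 0.12 for Angpt1, with SE 0.12 to 0.31 and every adjusted p at 1 by limma. For each of the 10 the groups overlapped, beside 0.158% of all tested genes with Combination all higher and 0.252% all lower. Over all tested genes 0% passed by limma, with 60 genes at an unadjusted p under 0.05, and limma-voom and array weights passed none as well. Whether the effect of anti-PD-1 differed with and without plerixafor was tested by the interaction, which was negative for each of the 10 genes and passed for none (0% of all tested genes, 1957 of them at an unadjusted p under 0.05). The 3 with an unadjusted p under 0.05 were Cdh5, at -0.76 (SE 0.25, adjusted p = 0.204), Kdr, at -0.64 (SE 0.22, adjusted p = 0.223), and Tie1, at -0.63 (SE 0.29, adjusted p = 0.314), by limma. With array weights Kdr (adjusted p = 0.00998) and Cdh5 (adjusted p = 0.03) passed, as did Kdr without anti-PD-1 library 4 (adjusted p = 0.0184); 32.1% and 7.94% of all tested genes passed in these settings, so that 2 of 10 and 1 of 10 are no more than near the background.

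To separate the genes from the general level of endothelial transcripts, each was set against the mean of 12 other endothelial genes in the same library (Cldn5, Esam, Egfl7, Erg, Sox18, Robo4, Mmrn2, Clec14a, Ecscr, Icam2, Ramp2 and Myct1). The mean log2(FPKM + 0.1) of these 12 genes was 2.17 ± 0.42 in Plerixafor, 2.28 ± 0.45 in Combination, 3.68 ± 0.37 in anti-PD-1 and 3.28 ± 0.17 in Solution (SD, n = 5 each). By limma 10 of the 12 were lower and 1 (Egfl7) higher, both in Plerixafor and in Combination. Of all tested genes 33.2% were lower and 42.3% higher in Plerixafor, and 34.1% and 42.0% in Combination. Across 10 genes and 5 comparisons 19 of 50 exact permutation tests passed an adjusted p of 0.05, 25 before adjustment. The smallest exact p that 5 against 5 libraries allow is 0.007937, which becomes 0.02205 after adjustment. With Cdh5 alone in place of the 12 genes 11 passed, of fewer tests, since Cdh5 itself was then not tested.

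Relative to that panel Flt1 was higher in the treated tumours, although its own FPKM overlapped among all groups. Since the panel fell in these tumours, any gene that fell less stands higher against it. The share of all tested genes that would pass against the panel was not computed, so passing does not set a gene apart. Its log2 level relative to the panel was 0.67 ± 0.31 in Plerixafor, 0.55 ± 0.55 in Combination and -0.54 ± 0.46 in Solution (SD, n = 5 each; adjusted p = 0.02205 for both by exact permutation). Emcn was higher relative to the panel as well, at 0.98 ± 0.36 in Plerixafor, 0.996 ± 0.28 in Combination and 0.29 ± 0.20 in Solution (adjusted p = 0.04177 and 0.02205 by exact permutation). Tek fell further than the panel, with differences of -0.98 in Plerixafor and -1.04 in Combination, and so did Angpt1 in Plerixafor, at -0.92 (adjusted p = 0.02205 each, exact permutation), but not past the threshold in Combination (-0.78, adjusted p = 0.05669, exact permutation). Tie1 fell slightly less than the panel, by a difference of 0.22 in Plerixafor and 0.22 in Combination, and it rose more than the panel with anti-PD-1, by 0.37 (adjusted p = 0.02205 each, exact permutation). Against the panel in Combination, Kdr was higher by 0.40 and Pecam1 lower by 0.33 (adjusted p = 0.02205 each, exact permutation). Neither passed in Plerixafor (0.52 and -0.16, adjusted p = 0.06901 and 0.1701, exact permutation). Vegfa was higher by 2.69 in Plerixafor and 2.37 in Combination (adjusted p = 0.02205 each, exact permutation). For Cdh5 and Angpt2 none of the 5 comparisons passed, with adjusted exact permutation p of 0.08267 at the lowest.

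**Figure D3:**
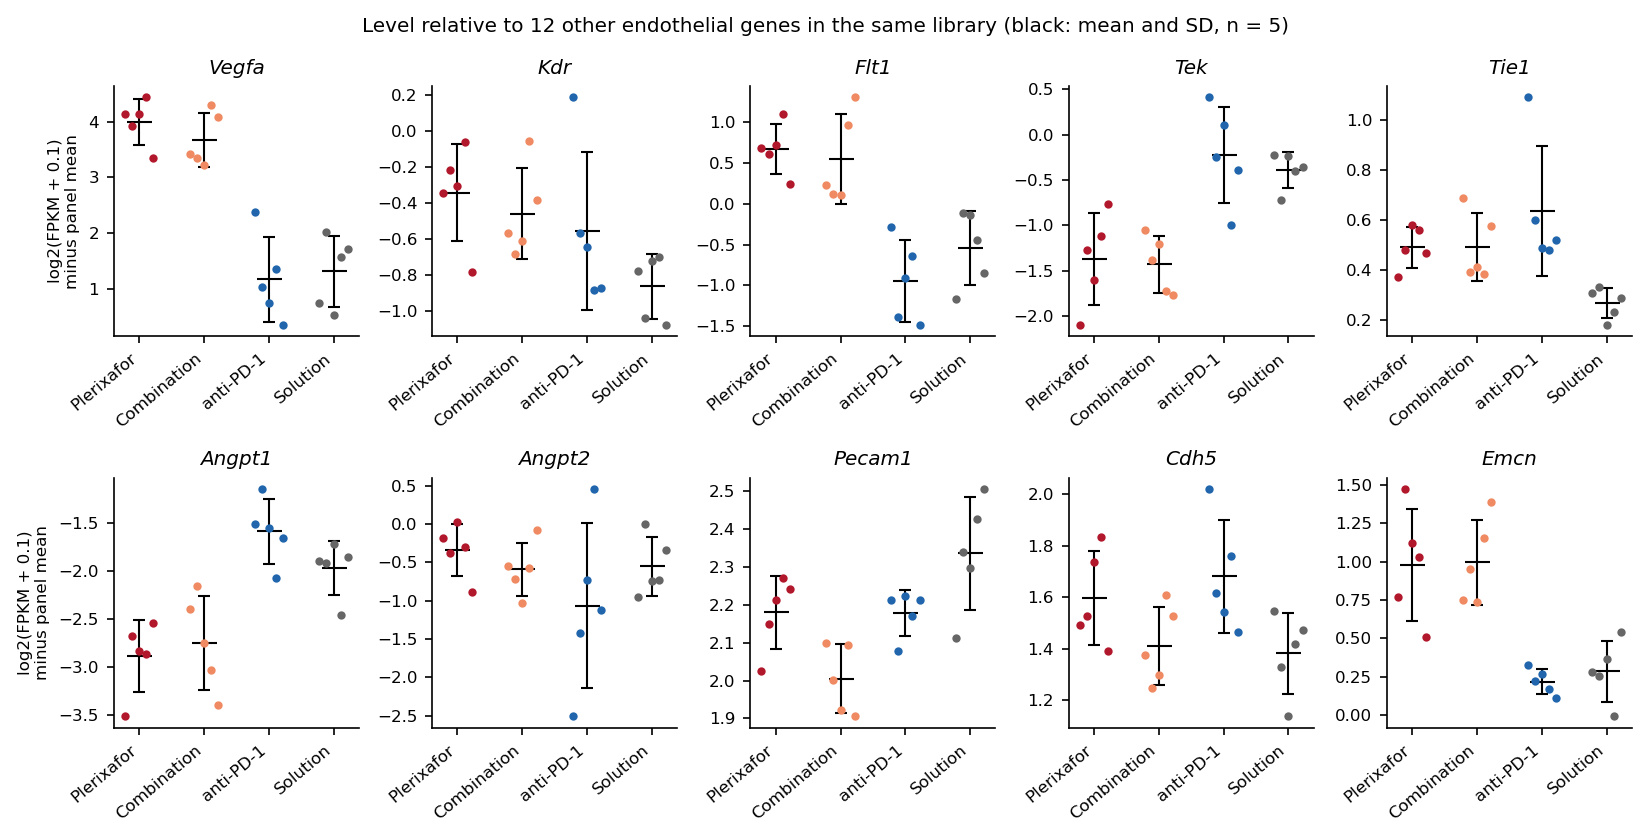
log2(FPKM + 0.1) of each of the 10 genes minus the mean of 12 other endothelial genes in the same library (y axes), by group (x axes), with points for libraries and the mean and SD in black. Flt1 stands higher in every Plerixafor and Combination library than in the Solution libraries, Emcn is higher with 1 overlapping Plerixafor library, Tek stands lower, and Cdh5 overlaps throughout.

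Ratios between ligands and receptors also differed. The ratio of Vegfa to Kdr, each per length, was 22.3, 17.7, 21.9, 22.7 and 17.6 in the Plerixafor libraries and 15.9, 16.5, 14.3, 20.5 and 22.1 in the Combination libraries. It was 4.55, 3.02, 2.61, 4.71 and 2.33 in the anti-PD-1 libraries and 2.86, 8.31, 2.39, 4.79 and 6.90 in the Solution libraries. Libraries with and without plerixafor did not overlap, and the log2 ratio differed by 2.17 for Plerixafor and 1.96 for Combination against Solution (adjusted p = 0.01984 each, exact permutation). The log2 ratio of Vegfa to Flt1 was 3.33 ± 0.13 in Plerixafor, 3.13 ± 0.21 in Combination and 1.85 ± 0.70 in Solution (SD, n = 5 each; adjusted p = 0.01984 for both against Solution, exact permutation).

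Between receptors, the ratio of Tek to Tie1 had a median of 0.298 in Plerixafor, 0.293 in Combination, 0.555 in anti-PD-1 and 0.645 in Solution libraries. Its log2 value differed from Solution by -1.21 in Plerixafor and -1.26 in Combination (adjusted p = 0.01984 each, exact permutation). The ratio of Flt1 to Kdr had a median of 2.03 in Plerixafor, 1.75 in Combination, 0.719 in anti-PD-1 and 1.20 in Solution libraries. The log2 difference was 0.69 in Plerixafor (adjusted p = 0.03608, exact permutation) and 0.68 in Combination (adjusted p = 0.06105, exact permutation). Between the angiopoietins, Angpt2 to Angpt1 had a median of 5.91 in Plerixafor, 3.63 in Combination, 1.45 in anti-PD-1 and 2.86 in Solution libraries, and the Plerixafor difference of 1.12 on the log2 scale passed narrowly (adjusted p = 0.0496, exact permutation). Over 5 ratios and 5 comparisons 12 of 25 tests passed, 14 before adjustment. How often ratios of other gene pairs would pass was not tested. Since 75.5% of all tested genes passed by limma in Plerixafor and 76.1% in Combination against Solution, the count alone does not set these pairs apart.

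**Figure D4:**
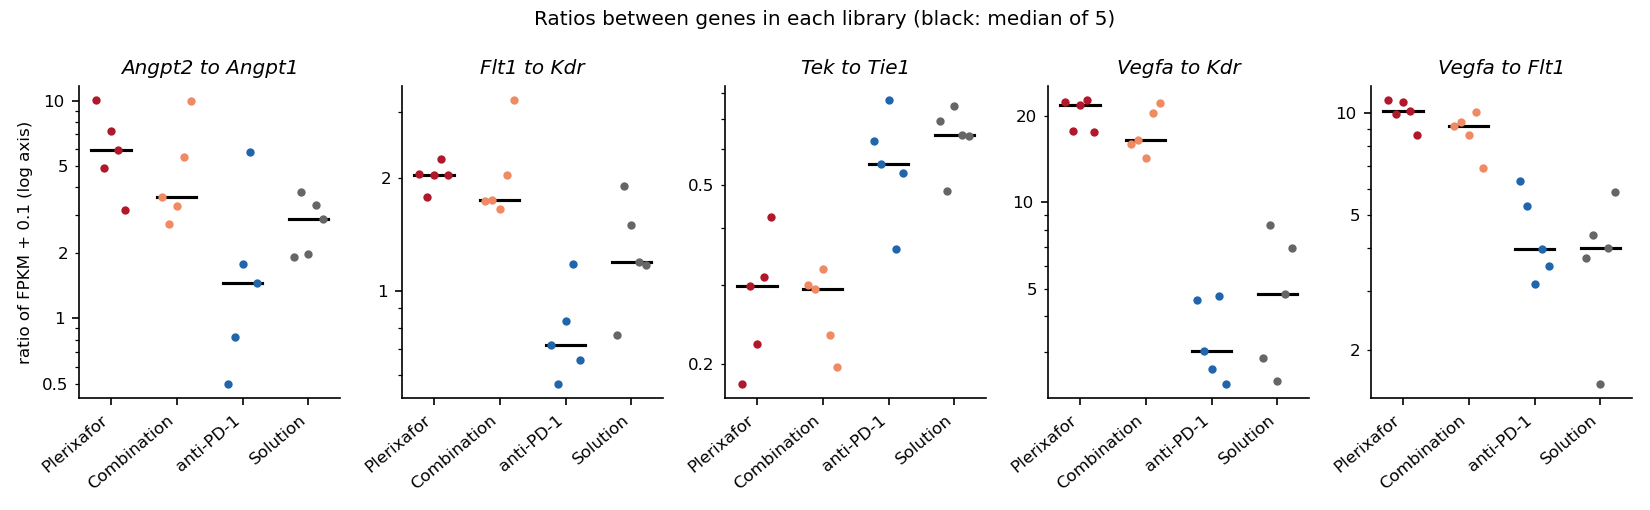
Ratios of FPKM + 0.1 between pairs of the 10 genes (y axes, log scale) in single libraries (points), by group (x axes), with the group median as a black line. Vegfa to Kdr and Vegfa to Flt1 are higher, and Tek to Tie1 lower, in the Plerixafor and Combination libraries than in the Solution libraries.

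How the genes varied together within a group was followed against Cdh5, a transcript largely restricted to endothelium. Correlations were taken after removing group means, within the 10 Plerixafor and Combination libraries and within the 10 anti-PD-1 and Solution libraries, since these formed separate clusters. With plerixafor, Pecam1 followed Cdh5 most closely (r = 0.976, permutation p = 6.944e-05, adjusted p = 0.00125; rho = 0.976, permutation p = 6.944e-05, adjusted p = 0.00125). Tie1 (r = 0.966, permutation p = 0.0004861, adjusted p = 0.002187; rho = 0.927, permutation p = 0.001597, adjusted p = 0.007188) and Tek (r = 0.936, permutation p = 0.001042, adjusted p = 0.00375; rho = 0.915, permutation p = 0.002292, adjusted p = 0.00825) did so too. Kdr (r = 0.912, permutation p = 0.0001389, adjusted p = 0.00125; rho = 0.939, permutation p = 0.0006944, adjusted p = 0.00625) and Angpt1 (r = 0.895, permutation p = 0.004097, adjusted p = 0.01229; rho = 0.891, permutation p = 0.004931, adjusted p = 0.01479) also passed. Without the 2 libraries farthest from the Cdh5 median r was 0.943 for Pecam1, 0.924 for Tie1, 0.852 for Tek, 0.855 for Kdr and 0.795 for Angpt1.

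Vegfa (r = 0.336, permutation p = 0.3594, adjusted p = 0.4313; rho = 0.321, permutation p = 0.4016, adjusted p = 0.4819) and Flt1 (r = 0.302, permutation p = 0.4193, adjusted p = 0.4717; rho = 0.285, permutation p = 0.4523, adjusted p = 0.5088) did not pass in those libraries. Without plerixafor Tie1 alone passed (r = 0.881, permutation p = 0.0003472, adjusted p = 0.002083; rho = 0.891, permutation p = 0.001181, adjusted p = 0.007083; r = 0.900 without 2 libraries), and Flt1 had the lowest value, which was negative and did not pass (r = -0.763, permutation p = 0.02639, adjusted p = 0.06786; rho = -0.685, permutation p = 0.06069, adjusted p = 0.1092). Angpt2 did not pass there either (r = -0.113, permutation p = 0.7956, adjusted p = 0.7956; rho = 0.103, permutation p = 0.7826, adjusted p = 0.7826). The smallest p that these permutations can give is 6.944e-05. Of 18 relations 6 passed an adjusted p of 0.05 on r, and leaving out single libraries gave 5 to 8. The share of all tested genes that would pass against Cdh5 was not computed, so the count does not set these genes apart. Over all 20 group-centred libraries Angpt1 ranked 111 and Kdr 212 by r with Cdh5, so many other genes followed it more closely. These points share a library and its depth, and genes within a library are not independent.

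**Figure D5:**
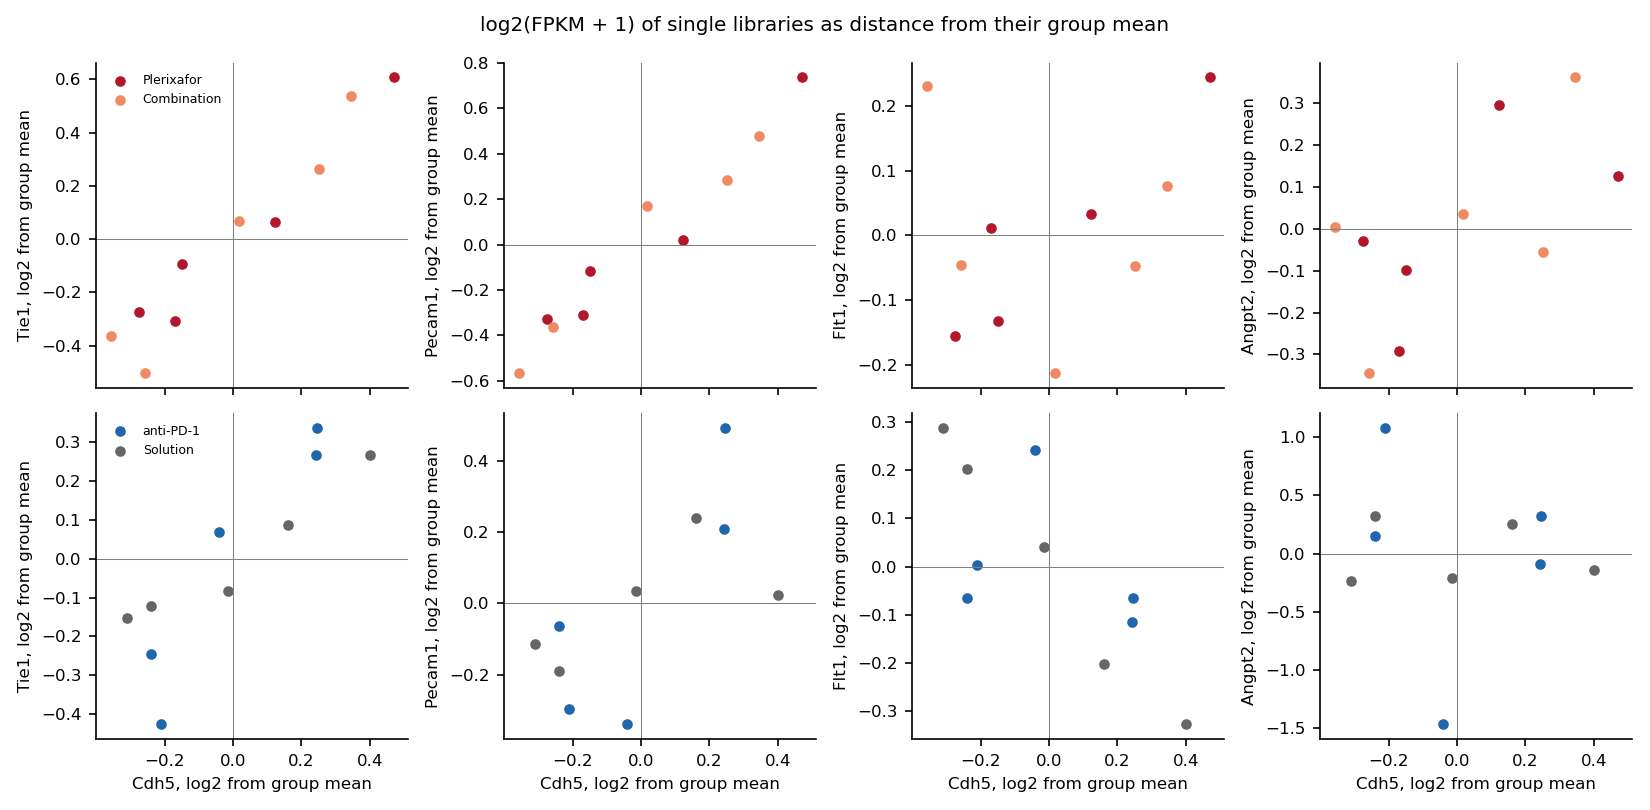
Cdh5 (x axes) against Tie1, Pecam1, Flt1 and Angpt2 (y axes) as log2(FPKM + 1) minus the group mean, with 1 point per library; the upper row holds Plerixafor and Combination, the lower row anti-PD-1 and Solution. Tie1 rises with Cdh5 in both rows and Pecam1 most tightly in the upper row, while Flt1 shows no common slope.

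Across all tested genes, the closest to Cdh5 over the 20 group-centred libraries was Tie1 (r = 0.927), followed by Sox7 (0.907), Meox2 (0.901), Mecom (0.894) and Zfp423 (0.889). Pecam1 ranked 10 and Tek 53 in that order, while Vegfa ranked 4987 and Angpt2 5613. The genes most like Vegfa were P2ry2 (r = 0.856), Mef2d (0.851), Mical2 (0.809), the hexokinase Hk2 (0.809) and Npepps (0.759). Angpt1 was most like Cluap1 (r = 0.914), Evc2 (0.899), Tceal1 (0.890), Hdgfl3 (0.889) and Ramp2 (0.880), 1 of the 12 panel genes. The genes closest to Angpt2 were Tbc1d10b (r = 0.971), the heme oxygenase Hmox1 (0.956), Plod3 (0.946), Abcc1 (0.945) and the ferritin chain gene Ftl1 (0.943), and its r with Cdh5 was 0.0866 and with Angpt1 0.0413. These r values are descriptions with no test. They pool both clusters, so the group with the widest spread weighs most in them. Angpt2 had an SD of 4.58 FPKM in anti-PD-1 against 0.70 to 1.45 in the other groups, and Hk2 39.3 against 3.56 to 6.66. Vegfa was 50.9 FPKM in anti-PD-1 library 1, which stood apart from its group. How far the r values rest on single libraries was not tested.

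The other genes of these pathways were counted from lists. Over all tested genes 42.3% were higher and 33.2% lower in Plerixafor, 42.0% and 34.1% in Combination, and 8.38% and 3.08% in anti-PD-1, each against Solution. Of 7 further VEGF ligands, receptors and co-receptors, 4 fell and none rose in Plerixafor: the co-receptors Nrp1, with 5.61 ± 3.23 FPKM against 23.4 ± 2.56 in Solution (log2 fold change -1.99, SE 0.28, adjusted p = 4.1e-06), and Nrp2 (-1.82, SE 0.33, adjusted p = 7.8e-05), and the lymphatic growth factors Vegfc (-1.68, SE 0.25, adjusted p = 7.56e-06) and Vegfd (-1.42, SE 0.36, adjusted p = 0.00149), by limma. In Combination 4 of the 7 fell as well, with Nrp1 at -2.11 (SE 0.28, adjusted p = 1.99e-06), and in anti-PD-1 tumours 1 rose, Vegfb, with 48.9 ± 28.6 FPKM against 23.1 ± 2.60 in Solution (0.89, SE 0.23, adjusted p = 0.0237). The Vegfb call was lost with the muscle level as a covariate, where 0% of all tested genes passed. Of 3 angiopoietin pathway genes, Ptprb, the endothelial phosphatase that restrains TEK, had 1.81 ± 0.717 FPKM in Plerixafor and 5.09 ± 1.45 in Solution tumours (-1.12, SE 0.23, adjusted p = 0.00022); Angpt4 fell in Plerixafor (-0.94, SE 0.34, adjusted p = 0.0171), and Foxo1, a transcription factor held in check by TEK signalling, rose (0.36, SE 0.12, adjusted p = 0.00869), all by limma. In Combination Ptprb alone of the 3 passed, at -1.03 (SE 0.23, adjusted p = 0.000466) by limma.

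Of 30 further endothelial markers, none of them at 0 throughout a group, 26 were lower and 2 higher in Plerixafor and in Combination tumours, with a median log2 fold change of -0.88 and -0.84. Over all tested genes 33.2% were lower and 42.3% higher in Plerixafor, and 34.1% and 42.0% in Combination. The progenitor and endothelial antigen Cd34 had 19.5 ± 12.4 FPKM in Plerixafor against 147 ± 24.5 in Solution tumours (-3.00, SE 0.35, adjusted p = 4.12e-07 by limma), and the receptor gene Calcrl fell, at -1.73 (SE 0.17, adjusted p = 5.42e-08). The exceptions were Egfl7 (0.73, SE 0.14, adjusted p = 0.000151) and Podxl (1.74, SE 0.19, adjusted p = 1.91e-07), which rose in Plerixafor by limma. Without Plerixafor library 5 the counts were 27 lower and 2 higher. With anti-PD-1 7 of the 30 were higher and none lower, led by Myct1 (0.62, SE 0.14, adjusted p = 0.0154 by limma), and none passed with the muscle level as a covariate. Of 12 mural cell markers 9 were lower in Plerixafor and 10 in Combination, among them Pdgfrb (-2.37, SE 0.30, adjusted p = 1.38e-06 for Plerixafor by limma), the receptor that marks pericytes, while 3 were higher with anti-PD-1. Those 3 were Abcc9, Kcnj8 and Des, a gene that skeletal muscle also expresses. With the muscle level as a covariate none of the 3 passed, nor did any other tested gene in that comparison.

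Of 13 hypoxia-inducible genes in the table, 4 were higher and 3 lower in Plerixafor than in Solution tumours, and their median log2 fold change was 0.07. Over all tested genes 42.3% were higher and 33.2% lower in that comparison. Ndrg1 (1.93, SE 0.17, adjusted p = 1.57e-08), Pgk1 (1.04, SE 0.20, adjusted p = 0.000114), Ldha (1.10, SE 0.24, adjusted p = 0.000429) and Egln1 (0.79, SE 0.20, adjusted p = 0.00139) rose by limma, whereas Egln3 (-2.31, SE 0.33, adjusted p = 4.52e-06), Pfkfb3 (-1.29, SE 0.27, adjusted p = 0.000308) and Adm (-1.11, SE 0.44, adjusted p = 0.0314) fell. Members of the list thus moved both ways beside the rise of Vegfa, with neither share above that of all tested genes. Of 11 tested tip cell and sprouting genes 2 rose in Plerixafor by limma, Esm1 (0.87, SE 0.20, adjusted p = 0.000756) and Unc5b (1.07, SE 0.38, adjusted p = 0.0153). In the same comparison 6 fell, among them Lama4 (-2.11, SE 0.26, adjusted p = 9.51e-07) and Plxnd1 (-2.04, SE 0.25, adjusted p = 9.69e-07). Apln (0.37, SE 0.22, adjusted p = 0.137) and Dll4 (0.03, SE 0.12, adjusted p = 0.809) of this list did not pass. Of 6 lymphatic markers 1 fell, Pdpn (-2.52, SE 0.56, adjusted p = 0.000499 by limma), which fibroblasts express as well.

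Markers of other cells differed from Solution as well. In both plerixafor-treated groups 10 of 10 macrophage, 9 of 9 T cell and 10 of 10 fibroblast markers were lower than in Solution, both tested platelet markers were lower, and 10 of 10 proliferation genes were higher. Median log2 fold changes in Plerixafor were -2.37 for macrophage, -2.19 for T cell, -2.92 for fibroblast and 3.34 for proliferation genes, beside -0.78 for the 10 genes. Over all tested genes 33.2% were lower and 42.3% higher in Plerixafor, and 34.1% and 42.0% in Combination. Summed macrophage markers ran from 1354 to 6153 FPKM in Plerixafor, 807.4 to 3851 in Combination and 11380 to 15260 in Solution libraries, and no marker of these 5 lists other than 1 platelet gene was at 0 throughout a group. Summed fibroblast markers ran from 553.1 to 2248 FPKM in Plerixafor, 444.4 to 1699 in Combination and 6149 to 10130 in Solution. Of 9 tested epithelial and skin markers 2 were higher in each of these groups, Krt8 (2.87, SE 0.56, adjusted p = 0.000152 in Plerixafor by limma) and Krt18 (3.27, SE 0.51, adjusted p = 1.36e-05), and 6 were lower, among them Krt5 (-3.72, SE 0.74, adjusted p = 0.00018) and Cdh1 (-2.03, SE 0.43, adjusted p = 0.000302). The part of these cells in the levels of Vegfa, Pecam1, Angpt1 or the other genes was not tested. Plerixafor library 5 was nearest to the controls on the first principal component (22.8, against 66.8 to 83.2 for the other Plerixafor libraries; 68.4% of variance) and held the most macrophage, T cell and fibroblast RNA of its group; without it 9 of the 10 genes passed in Plerixafor, beside 76% of all tested genes.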

How the data were processed

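RNA of 20 tumour libraries was prepared with a stranded mRNA kit, per the labels' protocols, which name no batch. The authors deposited 1 table of FPKM values for 18722 genes. The submitters' processing notes name the aligner HISAT2 2.1.0, the counter HTSeq 0.11.2, StringTie 2.1.4, DESeq2 1.28.1 and the build GRCm39 without a role; the tool that made the FPKM and the handling of strand are not given in the sources used here. Within each gene the values were whole multiples of 1 step (tolerance 0.02), which gave back reads for all 18722 genes.

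Values were tested as log2(FPKM + 1) by limma 3.58.1 under R 4.3.3, with group as the one factor, trended empirical Bayes and all 20 libraries, which leaves 16 residual degrees of freedom. The 12687 genes that reached 1 FPKM in 5 or more libraries were tested two-sided, with Benjamini-Hochberg adjustment over all of them within each comparison. Fold changes on this scale understate those of low genes. Ratios used a pseudocount of 0.1 and exact two-sided permutation of libraries (252 assignments). Correlations used all 14400 permutations within groups. The fit was tested on simulated data. Copies were looked for within groups and none was found: the median chi-square per gene over the 40 pairs within groups was 1.91 to 71.5.

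The 10 genes, the gene lists and the tests were chosen with earlier results of these data known. Up to 4 genes of a list with the smallest p were named, and the 5 genes most like a member. Egfl7, Ldha, Egln1, Adm, Esm1, Unc5b, Apln and Dll4 were named after their values were seen. Alternatives changed the pseudocount (0.1), the filter (none, or at least 5 FPKM), the scaling (TPM, quantile normalisation, median-of-ratios), the model (array weights, limma-voom on recovered reads, a muscle covariate, a block for replicate number, or only the groups compared), or left out libraries.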

Additional observations from a re-analysis of the deposited data

Results flagged for a closer look

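Over the 10 genes and 5 ratios, 60 groups of 5 libraries were examined for a library far from the others, and 5 had one whose gap to its nearest neighbour exceeded 0.71 of the group's range; chance flags about 1 in 20 groups. Tek was 4.22 FPKM in Plerixafor library 5, against 0.825 to 1.66 in the other 4 Plerixafor libraries, and Pecam1 was 34.6 FPKM there, against 16.01 to 20.7. That library also had the highest summed macrophage markers of its group, at 6153 FPKM. In anti-PD-1 library 4 Tek was 5.15 FPKM, against 12.7 to 13.4 in the other 4 anti-PD-1 libraries, and the ratio of Angpt2 to Angpt1 was 5.81, against 0.502 to 1.77. The same library had the lowest summed muscle markers of the anti-PD-1 group, at 163.1 FPKM. The ratio of Flt1 to Kdr was 3.22 in Combination library 5, against 1.65 to 2.03 in the other 4 Combination libraries. The part of other cells in these values was not tested.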

How the results depend on the processing

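Of 1412 recomputed fold changes of single genes 1314 kept direction and side of the threshold, 42 lost and 25 gained a call, and 31 changed sign, none of them past the threshold on either side. In anti-PD-1 against Solution 3 of the 10 genes passed. With only the groups compared, with the muscle covariate, without Solution libraries 3 and 5, or without anti-PD-1 libraries 1, 2 and 5, 0 passed. The shares of all tested genes beside these were 0%, 0%, 0.00788% and 0.00788% in that order. By limma-voom 1 passed, beside 1.09% of all tested genes, and with array weights 6 passed, beside 32.8%. When single libraries were left out 0 to 5 passed, beside 0.0158% to 32.4% of all tested genes. The interaction passed for 2 genes with array weights, beside 32.1% of all tested genes. Without single libraries it passed for 0 to 1, beside 0% to 7.94%. Of the tests relative to the panel 19 passed, and 17 to 20 without single libraries. With Cdh5 as the panel 11 passed, of fewer tests, since Cdh5 itself was then not tested. Of the ratio tests 12 passed, and 10 to 16 without single libraries. The cause of these changes was not tested.

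Sign changes concerned Flt1 in anti-PD-1 against Solution (main value -0.00): 0.00080 with a pseudocount of 0.1, 0.0352 by TPM, 0.11 by median-of-ratios, 0.0483 by quantile normalisation, 0.14 by limma-voom, 0.0273 without Solution libraries 3 and 5, and -0.0832 to 0.0707 without single libraries. For Combination against anti-PD-1 Flt1 was -0.0309 by TPM, -0.10 by median-of-ratios, -0.0662 by quantile normalisation and -0.11 by limma-voom; quantile normalisation gave -0.0111 for Plerixafor and -0.0179 for Combination against Solution, and leaving out single libraries gave -0.0106 to 0.14 for Combination. Angpt2 in anti-PD-1 against Solution (main value -0.06) was 0.0255 by median-of-ratios, 0.0368 with array weights, 0.13 by limma-voom, 0.53 with the muscle covariate, 0.56 without anti-PD-1 libraries 1, 2 and 5, and -0.33 to 0.31 without single libraries. Under the muscle covariate Tek was -0.30, Pecam1 -0.0827 and Emcn -0.00430 in that comparison, and Vegfa was -0.0641 without anti-PD-1 libraries 1, 2 and 5.

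All genes called in anti-PD-1 against Solution numbered 1454, and 0 with only the groups compared or the muscle covariate, 1 without Solution libraries 3 and 5 or without anti-PD-1 libraries 1, 2 and 5, 138 by limma-voom, 899 at a minimum of 5 FPKM, 2240 by quantile normalisation, 4163 with array weights, and 2 to 4112 without single libraries. The interaction called 0 genes, and 4071 with array weights. Median-of-ratios scaling moved the median of all genes in Combination against anti-PD-1 to -0.02, against 0.15. With the replicate number as a block, 9, 3, 8, 0, 9 and 0 of the 10 genes passed in Plerixafor, anti-PD-1 and Combination against Solution, Combination against Plerixafor, Combination against anti-PD-1 and the interaction. In the same order 74.6%, 9.21%, 75.3%, 0%, 73.6% and 0% of all tested genes passed. Over 30 pairs with the same number the median r of group-centred values was -0.075, and 7 exceeded 0.1. Of 20 libraries 2 correlated best with their own number, so the libraries share only a number.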
